A study of Rattus norvegicus with 4 samples.

Results

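The transcription factors described here set mesenchymal and vascular cell fate: Snai1, Snai2, Zeb1, Zeb2, Twist1, Tcf21, Gata6, Foxc2, Prrx1 and Tbx18. They were taken as all probe sets that the platform annotation assigns to 1 of these 10 symbols and to no other gene. This gave 14 probe sets of 8 genes, among 12922 genes measured. Snai2 and Tbx18 had no such probe set and were not analysed here. The cells were smooth muscle cells of the rat aorta, which contract the vessel wall, grown in 10% serum for 24 h and kept without serum and insulin for 72 h in every sample. For 3 h, 2 samples then received PDGF-BB (platelet-derived growth factor BB), which drives them to proliferate and migrate, at 30 ng/mL. The other 2 samples received its solvent alone, 10 mM acetic acid with 0.2% bovine serum albumin. Each sample was hybridised to 1 Affymetrix array, and the study looked for early genes of smooth muscle phenotypic modulation. Neither the rat strain nor the number of cultures is stated in the labels, and each p-value therefore reflects only how far these arrays scatter, which may be technical.

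Snail and Zeb proteins are zinc-finger repressors that bind E-boxes, short DNA motifs, in epithelial genes, and are best known for driving the epithelial-to-mesenchymal transition. Twist1 and Tcf21 are basic helix-loop-helix (bHLH) factors, which bind E-boxes as dimers with E proteins such as Tcf3, Tcf4 and Tcf12. Id proteins sequester those partners. Gata6 is a zinc-finger factor linked to the quiescent, contractile state of vascular smooth muscle. Foxc2 is a forkhead factor of vascular development and Prrx1 a homeobox factor of embryonic mesenchyme, while Tcf21 and Tbx18 mark progenitors of coronary mural cells.

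Values are linear intensities of probe sets, and changes are differences of log2(intensity + 16), PDGF-BB minus vehicle, with standard errors (SE) from limma. A call means a Benjamini-Hochberg adjusted p under 0.05 over all 23707 probe sets tested. Because the table gives no detection calls, the highest intensity of 27 Bacillus control probe sets, 80.3, served as a rough guide to background. The 4 arrays had median intensities of 132 to 148. Pearson's r over probe sets was 0.995 within the vehicle pair, 0.993 within the PDGF-BB pair and 0.959 to 0.963 between groups. These are correlations across probe sets, which are not replicates, and having so few arrays limits the precision. Of 8 smooth muscle markers, 8 lay above the guide in at least 1 group. Of these, 3 were lower with PDGF-BB, with log2 changes of -1.70 for Lmod1, -0.79 for Smtn and -0.70 for Myh11. The summed level of all 8 was 38828 and 39365 with vehicle against 37723 and 36769 with PDGF-BB. It was carried mostly by Acta2, Tagln and Cnn1, which were not called (log2 changes -0.10, 0.02 and 0.26). The call of Lmod1 held when any 1 array was left out. Those of Smtn (limma adjusted p 0.0531 to 0.0879) and Myh11 (0.0579 to 0.148) ended when either vehicle array or the second PDGF-BB array was left out, and that of Myh11 also with an offset of 1 (0.0567). Among markers of other cells, those at or below the guide in both groups were 6 of 7 endothelial, 6 of 7 leukocyte, 4 of 6 epithelial and 2 of 7 adventitial fibroblast genes. The summed level of the fibroblast markers was 4659 and 4625 with vehicle and 4086 and 3950 with PDGF-BB. That of the leukocyte markers was 1563 and 1620 against 1432 and 1318, and that of the endothelial markers 367 and 372 against 300 and 296. Each sum was carried mostly by 1 gene: Col14a1 (mean 4213 with vehicle, 3590 with PDGF-BB), Cd14 (1434 and 1209) and Esam (289 and 205). Of these 3 genes limma called Esam lower, and the one fibroblast marker called, Ly6c, was higher (97.4 and 138). Both calls ended when any single array was left out, with limma adjusted p values of 0.0552 to 0.178 for Esam and 0.0564 to 0.194 for Ly6c. The part of these markers in the results was not tested. In bulk RNA, fewer cells of a type and less RNA per cell cannot be told apart.

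After PDGF-BB, Snai1, Zeb1, Twist1 and Foxc2 were higher, and 1 of the 2 probe sets of Zeb2 was lower. Gata6, Tcf21 and Prrx1 had no called probe set. In all, 6 of the 14 probe sets were higher, 1 was lower and 7 did not pass, against a background of 11.4% of all probe sets higher and 12.9% lower. Thus 50% of the members' probe sets were called, beside 24.4% of all probe sets. Part of that background is dim, whereas 12 of the 14 had a mean over all arrays above the background guide. A fit of only such probe sets called 51.7% of 14129. Of the 12 member probe sets in that fit, the 7 called before stayed called and both of Gata6 passed too. The 51.7% is to be set beside these, not beside the 50% of the fit with dim probe sets. With each gene represented by its probe set of highest mean intensity, 4 of 8 genes were higher and 0 lower, beside 12.4% and 15.3% of all genes. For Zeb2 this was not the probe set called lower, although that one was the brighter with vehicle. The median log2 fold change of these 8 probe sets was 0.41, against -0.03 over all genes. In 9 of the 14 probe sets the PDGF-BB arrays did not overlap the vehicle arrays, 7 of them above and 2 below, while 63.0% of all probe sets had groups that did not overlap. These members were chosen with earlier results of the data known, so the counts are a description. They also rested on both vehicle arrays. Without vehicle replicate 1, 2 member probe sets were called, both of Foxc2, and without vehicle replicate 2 also 2, 1 of Foxc2 and 1 of Twist1. The share of all probe sets called dropped at the same time, to 5.37% and 5.83%, and was 12.7% without PDGF-BB replicate 2. In each of these fits 1 group has a single array, which is assumed to vary like the other group.

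**Figure D1:**
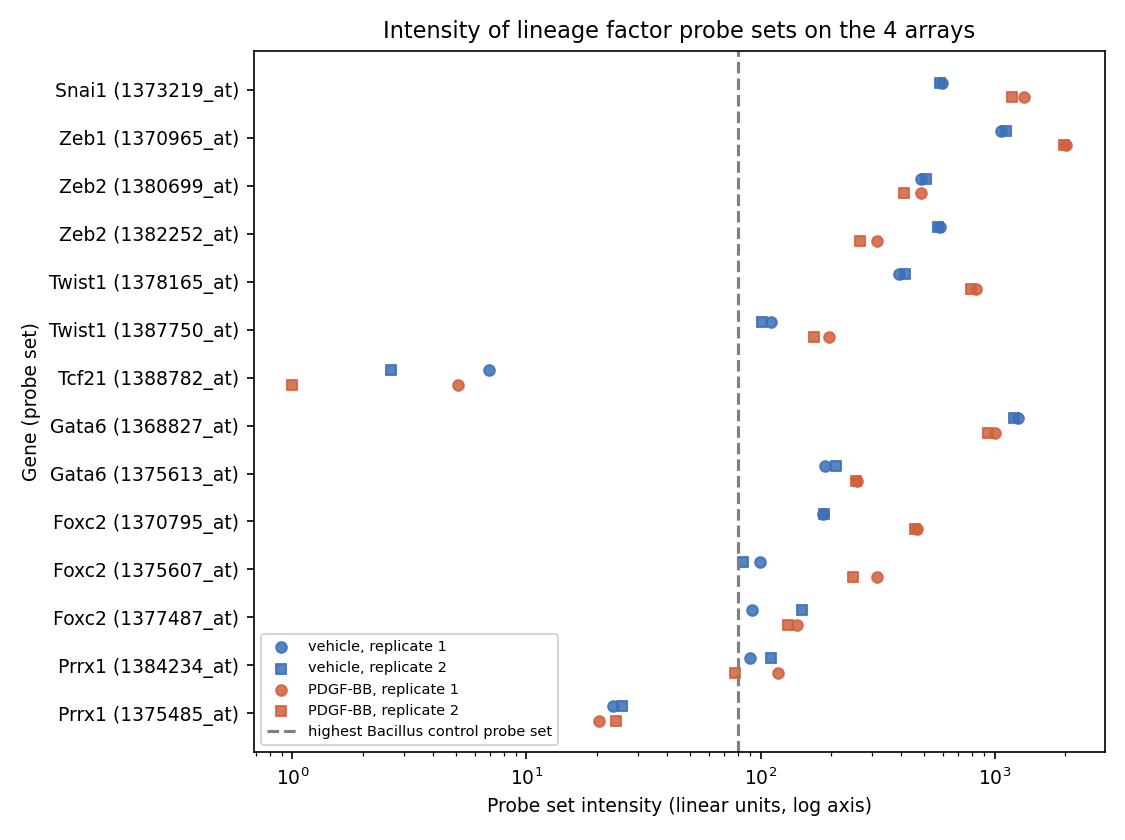
Intensity of the 14 probe sets (rows) on the 4 arrays, on a log axis, with vehicle in blue, PDGF-BB in orange and circles and squares for replicates 1 and 2. The dashed line marks the highest Bacillus control, 80.3. For Snai1, Zeb1, Twist1, 2 probe sets of Foxc2 and Gata6 1375613_at both orange points lie to the right of both blue points. For Zeb2 1382252_at and Gata6 1368827_at they lie to the left. Neither Gata6 probe set was called.

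The promoters of the called genes that had an entry in the RefSeq table (rat assembly GRCr8) are shown because these genes moved within the same 3 h, Snai1, Zeb1 and Twist1 upward and Zeb2 downward in 1 probe set. Foxc2 and Snai2 had no entry. Each window runs 5′ to 3′ on the gene's strand from 250 bases before to 50 bases after the transcript start that the table uses. For Zeb1 that start lies 502 bases inside the gene's outermost annotated start. Capitals mark CAGGTG or its reverse complement CACCTG, the E-box that Snail and Zeb factors recognise.
Snai1 (chr3:176667226-176667525, plus strand): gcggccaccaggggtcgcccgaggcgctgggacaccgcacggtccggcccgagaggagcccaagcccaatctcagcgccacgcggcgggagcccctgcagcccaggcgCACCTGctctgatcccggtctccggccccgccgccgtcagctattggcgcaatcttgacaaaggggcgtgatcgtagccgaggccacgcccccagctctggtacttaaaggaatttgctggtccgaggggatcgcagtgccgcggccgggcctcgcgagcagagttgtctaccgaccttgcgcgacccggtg
Zeb1 (chr17:56810604-56810903, minus strand): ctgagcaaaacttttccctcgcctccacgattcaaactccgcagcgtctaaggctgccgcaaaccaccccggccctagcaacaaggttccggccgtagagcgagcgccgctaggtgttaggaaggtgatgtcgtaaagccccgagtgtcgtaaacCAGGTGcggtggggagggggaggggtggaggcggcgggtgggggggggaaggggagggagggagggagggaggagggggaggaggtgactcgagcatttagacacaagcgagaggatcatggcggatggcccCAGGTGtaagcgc
Twist1 (chr6:56402059-56402358, plus strand): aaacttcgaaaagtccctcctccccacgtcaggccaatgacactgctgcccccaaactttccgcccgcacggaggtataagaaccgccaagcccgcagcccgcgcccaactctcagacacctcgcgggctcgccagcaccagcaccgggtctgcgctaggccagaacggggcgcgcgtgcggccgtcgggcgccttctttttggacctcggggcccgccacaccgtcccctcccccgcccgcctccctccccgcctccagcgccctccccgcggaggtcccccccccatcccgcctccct
Zeb2 (chr3:49754274-49754573, minus strand): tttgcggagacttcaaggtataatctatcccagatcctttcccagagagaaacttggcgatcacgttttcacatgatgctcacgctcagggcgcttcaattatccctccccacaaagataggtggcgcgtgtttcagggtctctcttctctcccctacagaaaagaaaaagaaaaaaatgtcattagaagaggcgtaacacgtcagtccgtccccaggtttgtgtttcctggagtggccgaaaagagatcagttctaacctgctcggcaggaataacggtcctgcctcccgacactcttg

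The Snai1 window held 1 such E-box, written CACCTG, at position -142 from the start. The Zeb1 window held 2, at positions -95 and 37. None was found in the Twist1 and Zeb2 windows. On either strand this E-box occurred in 18.8% of 33469 RefSeq promoter windows of the same length. The broader E-box CANNTG, which includes it, was found in 72.1% of windows, and besides the sites named it matched once in Zeb2 at -181, as CACATG. The sequence GATAA, a core of GATA sites, matched the Zeb2 window once, at -151 on the other strand, and 26.5% of all windows. Neither the AP-1 motif TGANTCA, present in 7.33% of windows, nor the CArG box of serum response factor, in 1.64%, matched any of the 8 windows of members with an entry. The windows of Twist1, Snai1 and Zeb1 had 71.3%, 70.0% and 63.7% G and C, the Zeb2 window 49.0%, and the median window 51.7%. These matches describe the letters in the windows and do not show binding.

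Snai1 encodes Snail, a repressor of Cdh1 that is induced by growth factors in many cell types. Its single probe set, 1373219_at, read 594 and 586 with vehicle and 1331 and 1186 with PDGF-BB. Both PDGF-BB arrays lay above both vehicle arrays, by a margin wider than the spread within either pair. This was a rise of 2.10-fold, or 1.07 on the log2 scale, with an SE of 0.10, a 95% interval of 0.80 to 1.34 and a limma adjusted p of 0.00520. Under the alternatives its value ran from 0.99 to 1.15. The call ended without vehicle replicate 1 or 2, at a limma adjusted p of 0.0531 in each case, within a range over all alternatives of 1.03e-04 to 0.0531.

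The Zeb genes encode a pair of related repressors with zinc-finger clusters at both ends of the protein, and they did not move together. Zeb1, read by probe set 1370965_at, was at 1065 and 1115 with vehicle and at 2020 and 1975 with PDGF-BB. The rise was 0.86 on the log2 scale (SE 0.09, limma adjusted p 0.00599), or 1.82-fold. The PDGF-BB values lay well clear of the vehicle values. The call ended without vehicle replicate 1 (limma adjusted p 0.0691) or 2 (0.0586), with a range over alternatives of 1.01e-04 to 0.0691, while the change stayed between 0.73 and 0.94.

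Zeb2 gave different answers from its 2 probe sets. Probe set 1382252_at was at 582 and 571 with vehicle and at 313 and 267 with PDGF-BB, so both treated arrays lay below both controls. It fell by 0.96 on the log2 scale (SE 0.11, limma adjusted p 0.00826), 1.94-fold lower. This call ended without vehicle replicate 1 (limma adjusted p 0.0729) or 2 (0.0674), the range over alternatives being 2.48e-04 to 0.0729. Probe set 1380699_at was at 483 and 508 with vehicle and at 487 and 412 with PDGF-BB, and the groups overlapped. Here the change was -0.14 on the log2 scale (SE 0.12), with a 95% interval of -0.46 to 0.18 and a limma adjusted p of 0.458. Both probe sets are annotated through expressed sequence tags, and the part of the transcript that each one reads was not analysed here.

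The difference in response between the 2 Zeb2 probe sets was tested on their difference within each array, fitted with limma over all 5882 pairs of probe sets of the same gene. It was 0.82 on the log2 scale (SE 0.12, limma adjusted p 0.0357), one of the 5.17% of pairs called. That call ended when any single array was left out: the limma adjusted p was 0.192 and 0.175 without the first and the second vehicle array, and 0.0819 and 0.107 without the first and the second PDGF-BB array. With an offset of 1 it was 0.112. Over all alternatives it ran from 0.00194 to 0.192, and the difference itself from 0.73 to 0.87. With the mean of both probe sets, Zeb2 fell by 0.55 (SE 0.11, limma adjusted p 0.0210). With the brighter probe set alone, it did not pass.

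**Figure D2:**
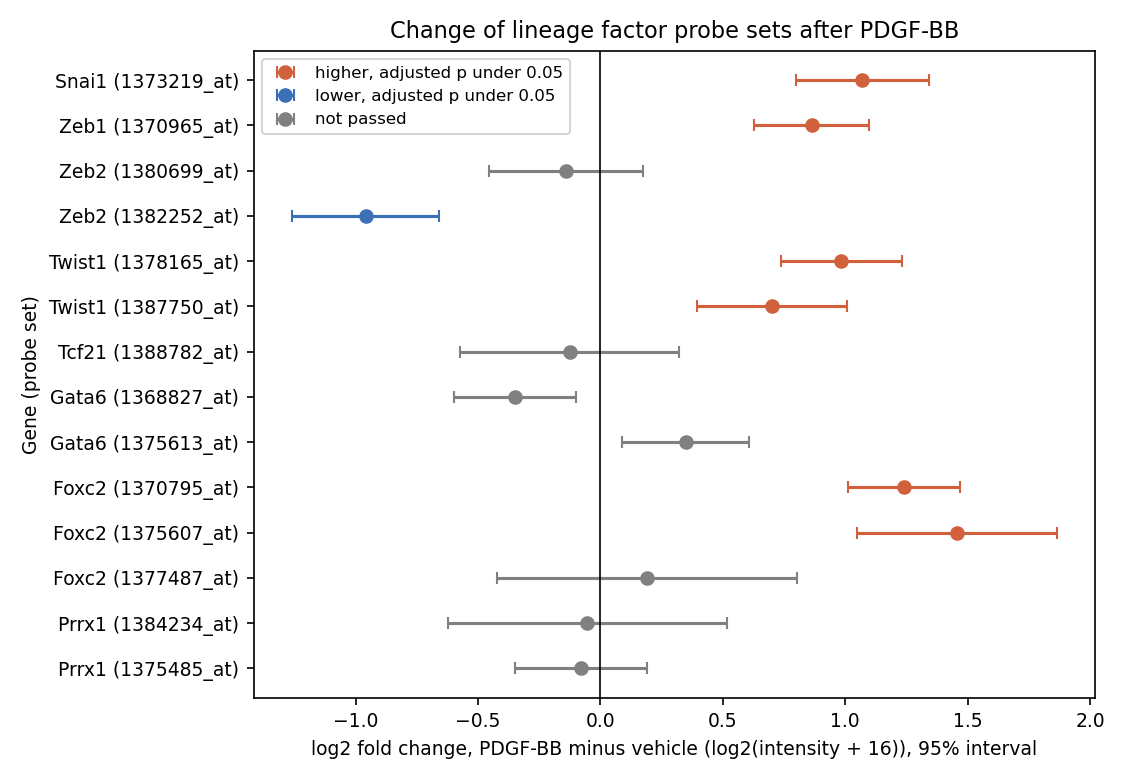
Log2 fold change, PDGF-BB minus vehicle, of each of the 14 probe sets on the log2(intensity + 16) scale; bars are 95% intervals from limma with 2 arrays a group. Orange marks the 6 probe sets called higher, blue the 1 called lower and grey the 7 that did not pass.

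Twist1, a bHLH factor of cranial and limb mesenchyme, rose in both of its probe sets. The brighter, 1378165_at, was at 389 and 416 with vehicle and at 830 and 793 with PDGF-BB. The dimmer, 1387750_at, was at 110 and 102 with vehicle and at 197 and 169 with PDGF-BB. In both, the PDGF-BB arrays were above the vehicle arrays without overlap. On the log2 scale the brighter one rose by 0.98 (SE 0.09, limma adjusted p 0.00516) and the dimmer one by 0.70 (SE 0.11, limma adjusted p 0.0182). The 2 probe sets differed in response by 0.28 (SE 0.14), which did not pass (limma adjusted p 0.288) except with an offset of 64 (0.37, limma adjusted p 0.0469; range over alternatives to 0.642). The brighter one lost its call without vehicle replicate 1 (limma adjusted p 0.0581; range over alternatives 1.15e-04 to 0.0581). The dimmer one lost it without either vehicle array (0.101 for replicate 1, 0.125 for replicate 2) or the first PDGF-BB array (0.0549), with a range of 0.00119 to 0.125.

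Tcf21, the other bHLH factor of the group, had 1 probe set, and its 4 values lay far below the background guide. Its intensities were 6.89 and 2.64 with vehicle and 5.08 and 1 with PDGF-BB. The groups overlapped, and no change can be read at this signal (log2 fold change -0.13, SE 0.17, limma adjusted p 0.643). Its sign turned when vehicle replicate 1 (0.022) or PDGF-BB replicate 2 (0.029) was left out.

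Foxc2 had the largest increases of the group. Probe set 1370795_at, the brightest of its 3, was at 185 and 187 with vehicle and at 468 and 456 with PDGF-BB. The replicates lay close together and the groups did not overlap. The rise was 1.24 on the log2 scale (SE 0.09, limma adjusted p 0.00262), or 2.36-fold, and it stayed called under all 12 alternatives, with values of 1.07 to 1.36 and limma adjusted p-values of 3.03e-05 to 0.0386. Probe set 1375607_at was at 99.3 and 84.6 with vehicle, just above the background guide, and at 314 and 248 with PDGF-BB. It rose by 1.46 (SE 0.15, limma adjusted p 0.00645), and this call ended without vehicle replicate 2 (limma adjusted p 0.0505; range over alternatives 1.04e-04 to 0.0505).

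The third Foxc2 probe set, 1377487_at, did not follow. It was at 92.4 and 150.5 with vehicle and at 143 and 132 with PDGF-BB, so the treated arrays lay between the controls. The log2 change of 0.19 (SE 0.23, limma adjusted p 0.606) had a 95% interval of -0.42 to 0.80 and turned to -0.12 without vehicle replicate 1. Set against the other two, its response differed by 1.05 (SE 0.23, limma adjusted p 0.0753) and 1.27 (SE 0.30, limma adjusted p 0.0866), neither past the threshold. Both differences passed with an offset of 64 (limma adjusted p 0.00410 and 0.00775) and among probe sets above the background guide (0.0164 and 0.0215), and they reached 0.192 and 0.200 at most.

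Gata6 gave probe sets of opposite sign, and neither passed. The brighter one, 1368827_at, annotated through a RefSeq transcript, was at 1264 and 1209 with vehicle and at 1001 and 936 with PDGF-BB. Both treated arrays lay below both controls, and the log2 difference was -0.35 (SE 0.09, limma adjusted p 0.0613). Probe set 1375613_at, annotated through an expressed sequence tag, was at 189 and 210 with vehicle and at 259 and 257 with PDGF-BB. Here both treated arrays lay above both controls, and the log2 difference was 0.35 (SE 0.10, limma adjusted p 0.0682). The unadjusted limma p-values were 0.0168 and 0.0196.

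Each of these Gata6 probe sets passed the threshold under 5 of 12 alternatives, the brighter at the lowest with an intensity trend (limma adjusted p 0.0119; range to 0.315) and the dimmer among probe sets above the background guide (0.0173; range to 0.353). Their signs held under every one of the 12 alternatives. The difference between the 2 responses was -0.70 (SE 0.13, limma adjusted p 0.0605). It passed under 4 of 11 alternatives, with values from -0.87 to -0.59 and limma adjusted p-values from 0.00609 to 0.235. For the mean of both probe sets the opposite values cancelled, to 1.73e-05 (SE 0.08).

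Prrx1 stayed near background. Its brighter probe set, 1384234_at, was at 90.4 and 111 with vehicle and at 118 and 77.7 with PDGF-BB, which differed by -0.05 on the log2 scale (SE 0.21, limma adjusted p 0.888). The 2 PDGF-BB arrays enclosed the vehicle values. The other, 1375485_at, was at 23.3 and 25.7 with vehicle and at 20.5 and 24.2 with PDGF-BB, below the guide on all arrays, with -0.08 (SE 0.10, limma adjusted p 0.619). The 95% interval of the brighter probe set ran from -0.62 to 0.52, so changes of that size were not detectable. Its sign turned with array medians subtracted (0.023) and with cyclic loess (0.020), and likewise without vehicle replicate 2 (0.076) or PDGF-BB replicate 2 (0.21).

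**Figure D3:**
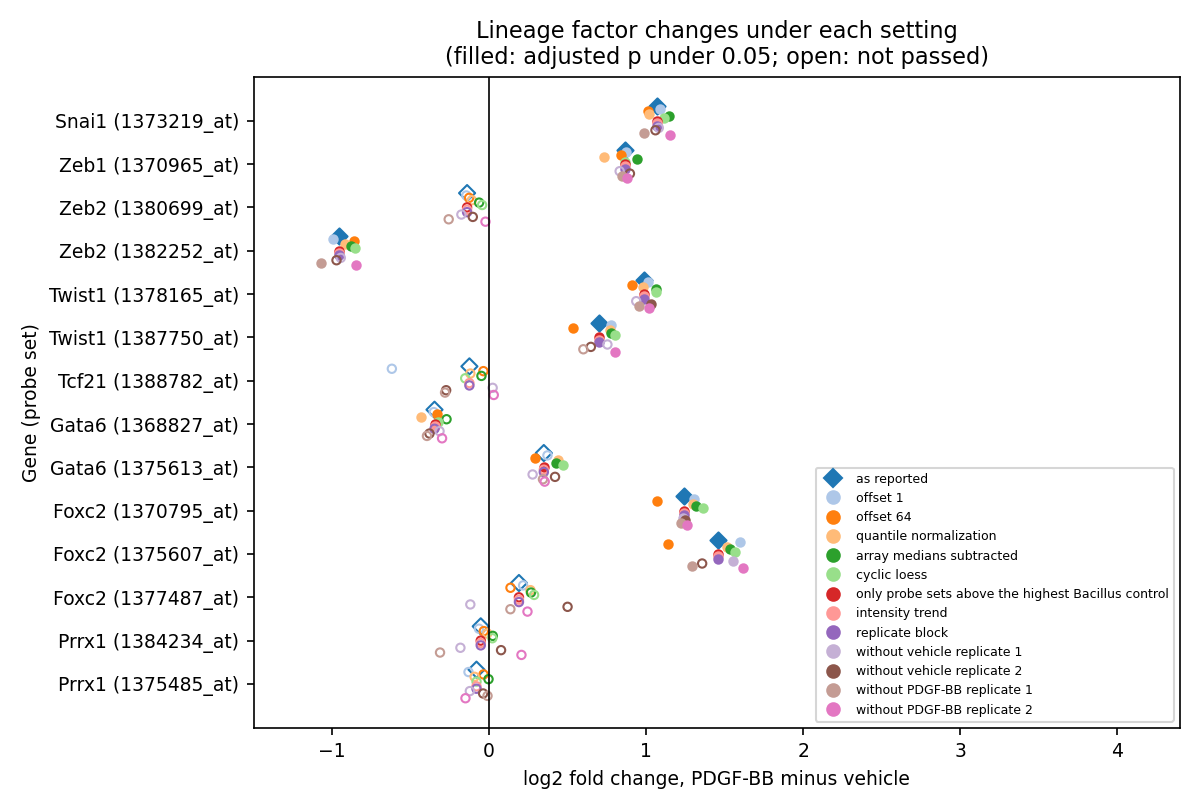
Log2 fold change of each probe set as reported (diamonds) and under each alternative (circles); filled symbols had a limma adjusted p under 0.05 in that setting. Snai1, Zeb1, Twist1 and Foxc2 1370795_at stayed to the right of 0 throughout and Zeb2 1382252_at to the left, while Tcf21, Prrx1 1384234_at and Foxc2 1377487_at crossed 0.

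Genes most like the largest called increase and decrease were sought by Euclidean distance between centred log2 values over the 4 arrays, among 3230 genes of the same intensity quartile. For Foxc2 1375607_at the nearest were Enpp1 (distance 0.11), Enpp3 (0.14) and Kif21a (0.16), with log2 fold changes of 1.45, 1.47 and 1.54. For Zeb2 1382252_at they were Slc27a1 (0.029), Cog8 (0.030) and Tbcel (0.034), at -0.95, -0.94 and -0.94. With 4 arrays in 2 groups this likeness mostly restates a change of the same size.

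Of 14 measured relatives from the same families, 4 were higher, 0 lower and 10 did not pass, a share called of 28.6% against 27.7% of all genes. The median log2 fold change was 0.28. Larger changes than in the members themselves were seen in Foxs1, a forkhead gene of the pericyte lineage, which rose by 3.16 (SE 0.10, limma adjusted p 6.80e-04) from 311 ± 22.3 to 2914 ± 153 (SD, n = 2). Twist2, the closest relative of Twist1, rose by 2.66 (SE 0.10) from 80.0 ± 3.60, at the background guide, to 589 ± 39.0. Foxf1, a forkhead factor of visceral mesenchyme, rose by 1.29 (SE 0.11), with both of its probe sets called. Gata3 was also called higher, in 1 of its 2 probe sets, but its means of 26.3 and 78.4 both lay below the guide, and its log2 change followed the offset, from 0.66 with 64 to 1.61 with 1. Its call ended with the offset of 1 (limma adjusted p 0.0744), and without vehicle replicate 1 (limma adjusted p 0.0707) or either PDGF-BB array (0.102 for replicate 1, 0.135 for replicate 2). Of the 14 relatives, 6 were at or below the guide in both groups.

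The bHLH partners and Id inhibitors split. Of 9 measured, 3 were lower, 1 was higher and 5 missed the threshold, with a median of -0.21 and 44.4% called, beside 27.7% of all genes. Id2 fell by 2.12 (SE 0.14) from 1124 ± 154 to 245 ± 22.8 (SD, n = 2), Id4 by 1.60 (SE 0.24) and the E protein gene Tcf4 by 1.16 (SE 0.12). Id1 rose by 0.88 (SE 0.12), from 490 ± 60.6 to 914 ± 15.6. The other E protein genes Tcf3 and Tcf12 had values of -0.31 and -0.21 and did not pass. Without vehicle replicate 1 or 2 the calls of Tcf4 (limma adjusted p 0.0575 and 0.0526), Id4 (0.0678 and 0.0828) and Id1 (0.0800 and 0.0502) ended, and that of Id1 also without PDGF-BB replicate 1 (0.0579) or 2 (0.0695).

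Among 19 corepressors, cofactors and turnover regulators of Zeb, Snail and Gata factors, 4 were higher, 2 lower and 13 did not pass. The median was 0.03 and 31.6% were called, beside 27.7% of all genes. Of the 19, 0 were at or below the background guide in both groups, whereas the 27.7% includes dim genes. Kdm1a, the histone demethylase LSD1 that Snail recruits, rose by 1.49 (SE 0.11) from 754 ± 12.9 to 2156 ± 203 (SD, n = 2). Limd1, a LIM-domain protein, rose by 0.94 (SE 0.13). Ezh2, the Polycomb histone methyltransferase, fell by 0.98 (SE 0.09) and the kinase gene Pak1 by 0.76 (SE 0.10). The Zeb corepressor genes Ctbp1 and Ctbp2 had values of -0.03 and 0.27 and did not pass. Without vehicle replicate 1 or 2 the limma adjusted p rose to 0.0568 and 0.0513 for Ezh2, 0.0924 and 0.0903 for Pak1 and 0.0935 and 0.0807 for Limd1.

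The epithelial genes that Snail and Zeb factors are known to repress mostly lay near background. Of 15 measured, 9 were at or below the background guide in both groups. Cdh1, the E-cadherin gene, read 24.0 and 7.40 with vehicle and 18.2 and 7.77 with PDGF-BB. Of the 15, 2 were higher, 0 lower and 13 did not pass, with a median of -0.04 and 13.3% called, below the 27.7% of all genes. Epcam, an epithelial adhesion molecule, rose by 3.75 (SE 0.11, limma adjusted p 5.49e-04), from 20.6 ± 2.49 to 477 ± 35.1 (SD, n = 2). Its vehicle values lay below the guide, so the size depended on the offset, from 2.68 with 64 to 4.47 with 1. Krt8, a keratin, rose by 0.73 (SE 0.10), a call that ended when any single array was left out (limma adjusted p 0.0541 to 0.102). The summed level of the 6 epithelial cell markers measured was 355 and 303 with vehicle and 986 and 894 with PDGF-BB. Cdh1, Krt18, Krt19 and Cldn4 were at or below the guide throughout, so the rise of the sum came from Epcam and Krt8. Esrp1 (0.44, limma adjusted p 0.0894) and Tjp3 (0.26, limma adjusted p 0.251) did not pass.

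Of 18 mesenchymal genes, 1 was higher, 1 lower and 16 did not pass, with a median of -0.04 and a share called of 11.1%, below the 27.7% of all genes. Tnc, the matrix protein tenascin C, rose by 1.71 (SE 0.10) and Cdh11, a mesenchymal cadherin, fell by 1.15 (SE 0.10), from 2464 ± 177 to 1100 ± 13.4 (SD, n = 2). The N-cadherin gene Cdh2 was at -0.32 (SE 0.11, limma adjusted p 0.114) and the metalloproteinase gene Mmp14 at 0.29 (SE 0.10, limma adjusted p 0.104). Vim, the intermediate filament vimentin, and Fn1, fibronectin, had log2 fold changes of 0.03 and 0.11 at intensities no lower than 9969 on any array. The highest intensity of any probe set was 16721 to 17218, depending on the array. Whether such bright probe sets still follow the RNA level was not tested, which also applies to Acta2, Tagln and Cnn1. With an intensity trend the counts of this list, by gene, were 6 higher and 4 lower. In that setting 31.2% of all probe sets were called, against 24.4% of all probe sets as reported.

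**Figure D4:**
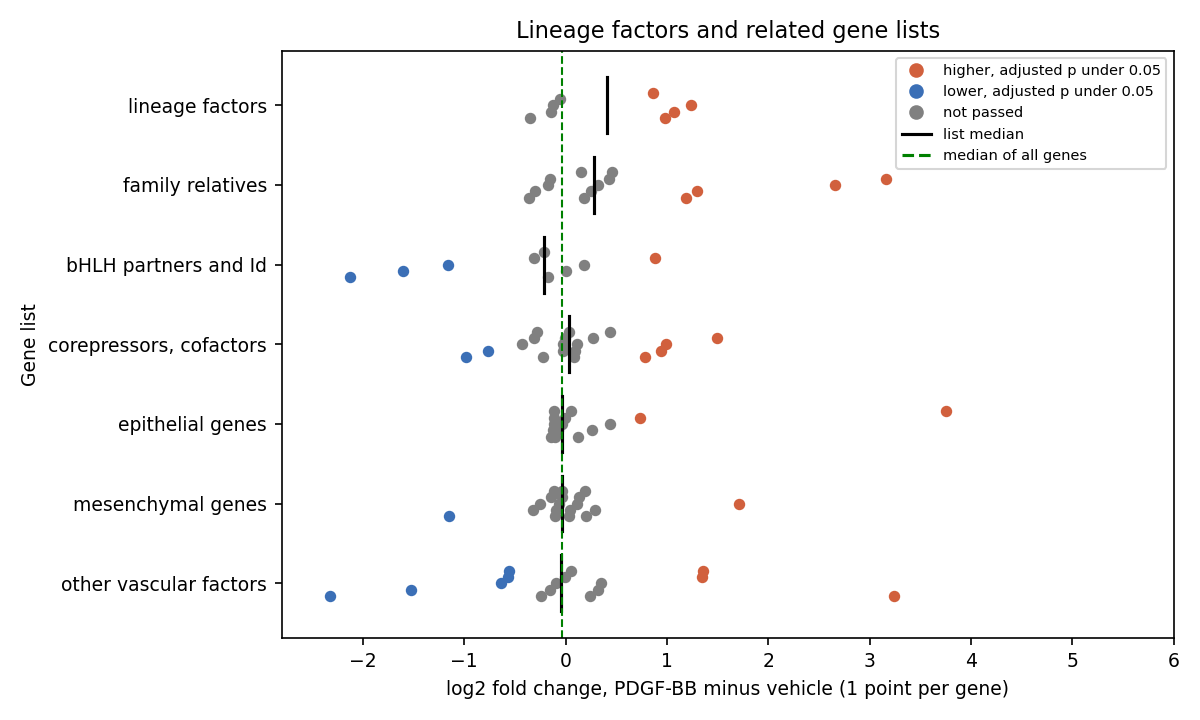
Log2 fold change of each measured gene, 1 point per gene, in the lineage factors and 6 related lists; orange is called higher, blue called lower, grey not passed, black bars are list medians and the dashed line the median of all genes, -0.03. The 4 called lineage factors lie between 0.86 and 1.24, and the epithelial and mesenchymal lists sit near 0 apart from single genes.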

How the data were processed

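RNA of 4 samples, 2 with vehicle and 2 with PDGF-BB, was measured on Affymetrix arrays. The deposited table holds linear probe set intensities, judged from the values. What software, background correction and scaling the authors applied is not given in the sources used here. Of 23764 probe sets, 57 Affymetrix controls were left out. A platform annotation gave 1 symbol for 17279 of the remaining 23707, several for 373 and none for 6055, and 0 probe sets with several symbols named a member. The 8 measured members matched RefSeq by gene identifier.

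The test was run on log2(intensity + 16), not scaled further. It was two-sided and used limma 3.58.1 (R 4.3.3, functions lmFit and eBayes), with Benjamini-Hochberg adjustment over all 23707 probe sets. To the 2 residual degrees of freedom of a probe set, limma added 2.40 from the scatter of all probe sets. Each SE and interval thus rests in large part on that shared scatter. The offset understates changes of dim genes. An exact permutation test of 2 against 2 arrays cannot go below 0.333 and was not used. A gene was represented by its probe set with the highest mean. The procedure was tested on simulated data.

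All member probe sets, and from each list the 4 genes with the smallest p, are named, besides a few chosen after their values were seen: Ctbp1, Ctbp2, Tcf3, Tcf12, Vim, Fn1, Cdh1 and the cell type markers given by name. The members and lists were chosen with earlier results of these data known. The test of differences between probe sets of 1 gene was added after the values had been seen. Alternatives covered the offset, scaling between arrays, a filter on dim probe sets, the variance prior, a replicate block, each array left out and the mean over a gene's probe sets.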

Additional observations from a re-analysis of the deposited data

How the results depend on the processing

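Over 166 refits of the 14 member probe sets, 138 kept direction and side of the threshold, 10 crossed it newly, 11 lost it and 7 turned in sign. All 11 losses came from leaving out 1 array. The fits without 1 array called 1272 to 4223 probe sets, 2 to 7 member probe sets and 1 to 4 member genes, against 5779, 7 and 4 with all arrays; they have fewer samples and 1 group with a single array. The other alternatives called 4171 to 7593 probe sets, 7 to 9 member probe sets and 4 to 5 member genes. Sign changes were seen only in 3 member probe sets, none of which had passed. Prrx1 1384234_at was at 0.023 with array medians subtracted and 0.020 with cyclic loess. Without 1 array it ran from -0.31 to 0.21 (0.076 without vehicle replicate 2), Tcf21 from -0.28 to 0.029 (0.022 without vehicle replicate 1) and Foxc2 1377487_at from -0.12 to 0.50. The difference between the Prrx1 probe sets, -0.03 as reported, ran from -0.36 to 0.30 without 1 array, and was 0.060 where that array was vehicle replicate 1. With the replicate number as a block, 4954 probe sets and 7 member probe sets were called, and the Zeb2 probe set difference was not (limma adjusted p 0.0826, range over alternatives 0.00194 to 0.192). The block also ended the calls of the markers Esam (0.0604) and Ly6c (0.0696). The deviations of same-numbered arrays had a correlation of -0.098 over probe sets, and nothing in the labels says that the numbers pair the samples. The filter left out Tcf21 and Prrx1 1375485_at, which therefore have no value there. Signal limits what can be said of these 2 probe sets, whose means were at or below the highest Bacillus control in both groups. Each array had 41.0% to 41.8% of all probe sets in that range.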

Other observations

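Other transcription factors of vascular and mesodermal development changed in both directions. Of 16 measured, 3 were higher, 5 lower and 8 did not pass, 50% called beside 27.7% of all genes, with a median log2 fold change of -0.05. Runx1, a runt-domain factor of blood and vessel development, rose by 3.24 (SE 0.09, limma adjusted p 5.33e-04), from 288 ± 16 to 2853 ± 10.6 (SD, n = 2). Mef2a, a MADS-box factor of muscle genes, rose by 1.36 (SE 0.09). Meox2, a homeobox factor linked to growth arrest of vascular smooth muscle, fell by 2.33 (SE 0.10) from 402 ± 10.1 to 67.4 ± 5.53, below the highest Bacillus control. Hoxa5 fell by 1.53 (SE 0.14). These 4 calls held in each fit that left out 1 array. The count of lower genes in the list was 2 when either vehicle array or PDGF-BB replicate 2 was left out.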
